A study of Mus musculus with 6 samples.

Results

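The synaptotagmins and the SNARE proteins of the syntaxin, VAMP and SNAP families were followed in bulk RNA-seq of mouse neurofibroma tissue. Their genes were taken by symbol (*Syt*, *Stx*, *Vamp* or *Snap* followed by a number, without *Snap91*), which gave 43 of the 24062 genes in the count files. They comprised 17 synaptotagmins, 15 syntaxins, 7 VAMPs and 4 SNAP proteins. The libraries came from 3 *Nf1fl/fl;DhhCre* mice and 3 mice labelled *Rx1flfl;Rx3fl/fl;DhhCre*, here called double knockout, all on the C57BL/6-I129 strain background. The labels name the tissue dorsal root ganglion (DRG) for the former and neurofibroma tumor for the latter, whereas the extraction protocol names DRG/tumors of both genotypes and gives *Nf1fl/fl* for the double knockout as well. *Nf1* was therefore floxed in all 6 mice, and tissue label and genotype cannot be told apart. The *Dhh* promoter drives Cre in the Schwann cell (SC) lineage, so that neurons and macrophages keep intact alleles. The ages of the mice are not given in the labels.

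SNARE proteins fuse vesicles with their target membrane. A VAMP on the vesicle zippers up with a syntaxin and a SNAP protein on the target membrane, and synaptotagmins add the calcium trigger through their C2 domains. *Snap25*, *Stx1a*, *Vamp1*, *Vamp2* and the fast synaptotagmins serve release at nerve terminals, and the DRG holds the cell bodies of sensory neurons that make them. Other members act in every cell, between the endoplasmic reticulum (ER), Golgi, endosomes and lysosomes.

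The libraries held 12439296 to 16682194 counts each. *Runx1* was at 131, 141 and 172 CPM (counts scaled to a common library total) in *Nf1fl/fl;DhhCre* replicates 1 to 3. The libraries labelled double knockout held 84.0, 78.9 and 185 CPM, so that *Runx1* was not lower in replicate 3. These are levels in bulk tissue, which also holds cells that keep intact alleles. *Runx3* was lower in each of the 3 (13.6, 10.3 and 12.2 against 19.9, 15.1 and 29.9 CPM). Neither gene passed the test over all genes (Benjamini-Hochberg-adjusted p = 0.37 for *Runx1* and 0.104 for *Runx3* from limma-voom). The labels place double-knockout replicate 3 alone in another sequencing run. For replicates 2 and 3 of the double knockout, and likewise for replicates 1 and 2 of *Nf1fl/fl;DhhCre*, the title and the deposited counts give each other's mouse number. The genotype is the same either way, but it is uncertain which of replicates 2 and 3 of the double knockout came from the other run and which mouse had the high *Runx1* value. Transcripts of 11 skeletal muscle markers summed to 2854 CPM in *Nf1fl/fl;DhhCre* replicate 2 and 12160 CPM in double-knockout replicate 2, and to 12.1 to 83.9 CPM in the other 4. Counts of members called are therefore also given without single libraries.

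Members of the synaptic release machinery, among them *Snap25*, *Vamp1* and the fast synaptotagmins, were higher in the double knockout, while *Snap23*, *Vamp8* and *Stx16* were lower. Of the 43 genes, 39 had enough counts to be tested. In the limma-voom fit over all 15652 genes tested, with Benjamini-Hochberg (BH) adjustment and a threshold of 0.05, 15 of the 39 rose, against 11.1% of all genes. 3 fell, against 8.22%, and 21 did not pass. A change of more than 2-fold besides was seen for 13 that rose, where 8.03% of all genes were called. No member fell by more than 2-fold with limma-voom, where 5.36% of all genes did, and the count was also 0 at an unadjusted p below 0.05, with edgeR's quasi-likelihood test and with DESeq2. Every double-knockout library lay above every *Nf1fl/fl;DhhCre* library for 17 of the 39 members, against 21.8% of all genes, and below for 6, against 20.5%. The median log2 fold change was 0.38 over the 39 members and 0.02 over all genes tested. Leaving out *Nf1fl/fl;DhhCre* replicate 1 reduced the 15 to 3, leaving out its replicate 3 to 8, and leaving out double-knockout replicate 2 to 9. Over all genes, the number of rises went from 1730 to 193, 631 and 801 in the same 3 fits. Without double-knockout replicate 3, 12 rose, 11 of them by more than 2-fold, and 1 fell. Over all genes, that fit had 1405 rises, 1122 of them past 2-fold, and 627 falls. With all libraries these were 1730, 1257 and 1287. *Syt2*, *Snap25* and *Snap47* rose, and *Snap23* fell, whichever of the 6 libraries was left out.

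**Figure D1:**
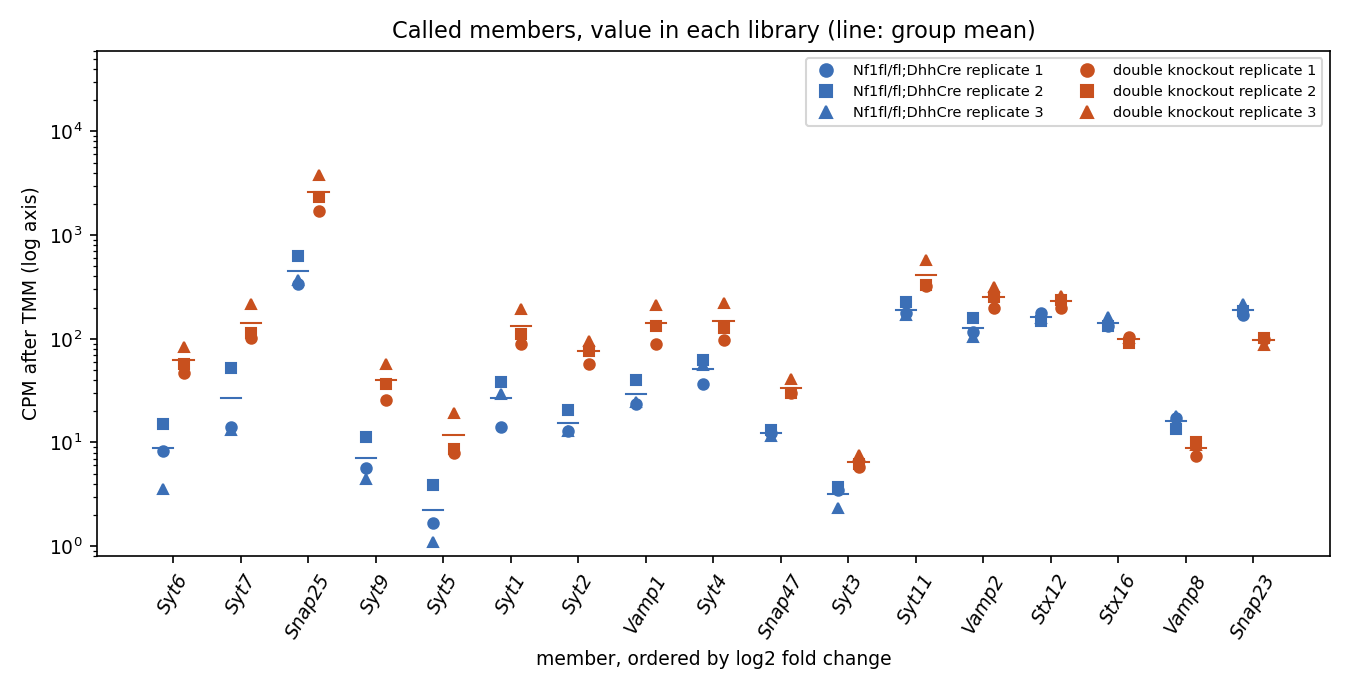
Level of called members in each library, in CPM on a log axis; 1 point is 1 library, coloured by genotype. *Snap25* lay between 340 and 631 CPM in *Nf1fl/fl;DhhCre* and between 1712 and 3787 CPM in double-knockout libraries, and for each of the members shown the genotypes did not overlap.

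*Snap25*, the plasma membrane SNARE of neurons that binds syntaxin and synaptobrevin, had the highest level of all members per kilobase of exon in both genotypes (65.9 and 385 CPM per kb). It lies on chromosome 2 of GRCm38, from 136713453 to 136782428. *Snap25* was at 340, 631 and 371 CPM in *Nf1fl/fl;DhhCre* and at 1712, 2351 and 3787 CPM in double-knockout tissue. The lowest double-knockout value was above the highest of the others, and replicate 3 was the highest of all. It rose by 2.53 on the log2 scale (5.76-fold, SE 0.34, BH-adjusted p = 0.00919 from limma-voom). Leaving out single libraries moved it between 2.22 and 2.85. *Snap25* alone made up 16.8%, 25.3% and 17.2% of the counts of all 43 genes in the *Nf1fl/fl;DhhCre* libraries, and 43.5%, 49.4% and 53.8% in the double-knockout libraries. All 43 genes together took 0.210% to 0.251% of the counts in the former and 0.397% to 0.677% in the latter.

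The remaining SNAP proteins moved in different directions. *Snap23*, the widely expressed paralog that serves secretion outside neurons, fell from 168, 186 and 216 CPM to 100, 103 and 86.6 CPM without overlap. Its log2 fold change was -0.97 (SE 0.14, BH-adjusted p = 0.0104 from limma-voom), and it ranged from -1.03 to -0.84 when 1 library was left out. *Snap47*, a SNAP protein of intracellular membranes, was at 12.4, 13.1 and 11.5 CPM against 30.2, 30.0 and 41.1 CPM. The log2 fold change of *Snap47* was 1.44 (SE 0.20, BH-adjusted p = 0.00948 from limma-voom), and its 3 *Nf1fl/fl;DhhCre* values lay close together. It shares 307 exon bases with *Jmjd4* on the opposite strand, and the strand setting of the counting is not stated, so reads there cannot be told apart. *Snap29*, which acts in endosomal and autophagic fusion, overlapped between the genotypes (log2 fold change 0.31). Per kilobase, *Snap25* and *Snap23* stood at 65.9 and 44.2 CPM in *Nf1fl/fl;DhhCre* tissue and at 385 and 22.5 CPM in double-knockout tissue. The ratio of *Snap25* to *Snap23* in CPM, not scaled to length, was 2.03, 3.40 and 1.72 in the *Nf1fl/fl;DhhCre* libraries and 17.1, 22.9 and 43.8 in the double-knockout libraries.

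The fast calcium sensors *Syt1* and *Syt2*, which trigger synchronous release from synaptic vesicles, both rose. *Syt9*, placed with them here by symbol, rose as well. *Syt2* was at 13.04, 20.5 and 12.8 CPM against 57.1, 77.0 and 95.5 CPM. *Syt2* rose by 2.31 on the log2 scale (SE 0.28, BH-adjusted p = 0.00785 from limma-voom), the lowest adjusted p among the members. *Syt1* was at 14.0, 38.0 and 29.2 CPM against 89.6, 112 and 194 CPM, and its log2 fold change was also 2.31 (SE 0.42, BH-adjusted p = 0.0149 from limma-voom). *Syt9* went from 5.62, 11.2 and 4.49 CPM to 25.8, 36.4 and 57.4 CPM. It had a log2 fold change of 2.52 (SE 0.45, BH-adjusted p = 0.0145 from limma-voom). Without *Nf1fl/fl;DhhCre* replicate 1, *Syt1* and *Syt9* missed the threshold (BH-adjusted p = 0.0521 and 0.0608 from limma-voom). For each of the 3 genes, double-knockout replicate 3 was highest and *Nf1fl/fl;DhhCre* replicate 2 was the highest of its group.

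*Syt7*, the high-affinity sensor of slow and asynchronous release that also acts in lysosomal exocytosis, was at 14.1, 52.5 and 13.1 CPM against 102, 113 and 215 CPM. *Nf1fl/fl;DhhCre* replicate 2 thus stood apart from the others of its group but below the double-knockout libraries. The log2 fold change was 2.65 (SE 0.53, BH-adjusted p = 0.0191 from limma-voom), and it missed the threshold without *Nf1fl/fl;DhhCre* replicate 1 or 3 (BH-adjusted p = 0.0743 and 0.0641).

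*Syt3*, *Syt5*, *Syt6* and *Syt10* were grouped here as further calcium-binding synaptotagmins. The grouping was by symbol, and no protein sequences were compared. *Syt6*, best known from the acrosome reaction of sperm, had the largest change of the called members. It lies on chromosome 3 from 103575231 to 103645569 and shares 505 exon bases with *Atg4a-ps* on the opposite strand. *Syt6* was at 8.18, 14.9 and 3.59 CPM in *Nf1fl/fl;DhhCre* and at 47.0, 56.6 and 83.7 CPM in double-knockout tissue. The lowest of the latter was above the highest of the former, and the *Nf1fl/fl;DhhCre* values themselves varied by more than those of *Snap47*. The log2 fold change was 2.98 (7.90-fold, SE 0.47, BH-adjusted p = 0.0116 from limma-voom), with a range of 2.48 to 3.54 when 1 library was left out. It missed the threshold without *Nf1fl/fl;DhhCre* replicate 1 (BH-adjusted p = 0.0539 from limma-voom). *Syt5* went from 1.67, 3.87 and 1.09 CPM to 7.89, 8.63 and 19.3 CPM, which gave a log2 change of 2.51 (SE 0.62, BH-adjusted p = 0.0333 from limma-voom). It missed the threshold without *Nf1fl/fl;DhhCre* replicate 1 or 3 or double-knockout replicate 2 (BH-adjusted p from 0.0624 to 0.105 in limma-voom). *Syt3* rose less, from 3.47, 3.69 and 2.31 CPM to 5.82, 6.17 and 7.53 CPM. Its log2 fold change was 1.07 (SE 0.30, BH-adjusted p = 0.0476 from limma-voom). It was called in none of the leave-one-out fits, nor with edgeR's quasi-likelihood test, library size only or no filter (BH-adjusted p from 0.0508 to 0.0597). *Syt10* had at most 7 counts in any library and was not tested.

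The 250 bases before the most upstream RefSeq start of *Syt6* and before the start of *Snap23* are given because these genes had the largest rise and the largest fall among the called members; *Snap23* was chosen for this after its values were seen. The sequences are those of RefSeq on GRCm38.p6, 5′ to 3′, at chr3:103574995-103575244 and chr2:120567421-120567670 on the plus strand. The *Syt6* window reaches a few bases into the gene as GENCODE annotates it. Capitals would mark the RUNX core TGTGGT, the cAMP response element TGACGTCA or the part TCAGCACC of the RE1 element, on either strand.
*Syt6*: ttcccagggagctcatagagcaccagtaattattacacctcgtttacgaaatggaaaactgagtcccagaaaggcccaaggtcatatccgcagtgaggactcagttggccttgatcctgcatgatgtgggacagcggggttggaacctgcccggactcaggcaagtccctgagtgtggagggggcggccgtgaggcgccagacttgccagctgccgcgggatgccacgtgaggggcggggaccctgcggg
*Snap23*: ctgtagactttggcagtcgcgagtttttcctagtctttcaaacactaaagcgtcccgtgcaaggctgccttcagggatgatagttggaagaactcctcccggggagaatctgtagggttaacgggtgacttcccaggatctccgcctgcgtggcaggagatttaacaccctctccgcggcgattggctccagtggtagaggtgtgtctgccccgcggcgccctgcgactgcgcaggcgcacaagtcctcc
Neither window held any of the 3 motifs. The study named putative RUNX-binding sites by the shorter string TGTGG, which was not searched for here and does occur in the *Syt6* window. RefSeq windows matched 32 of the 43 genes, with 43 windows in all, and 11 genes, *Snap25* and *Syt7* among them, had no entry. TGTGGT was present in 5 of these 43 windows, in those of *Snap47*, *Stx2*, *Stx5a* and *Syt8*, and in 14.0% of all 32817 windows. TGACGTCA and TCAGCACC were in 0 of 43 windows and in 1.55% and 1.33% of all windows. These counts describe letters in windows of fixed length and not binding.

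Of the 9 synaptotagmins that bind little or no calcium, 7 were tested and 2 rose, against 11.1% of all genes. *Syt11*, which regulates endocytosis and vesicle traffic, was at 176, 226 and 170 CPM against 320, 327 and 581 CPM. Its log2 fold change was 1.06 (SE 0.25, BH-adjusted p = 0.0295 from limma-voom). *Syt4*, found on dense-core vesicles, was at 37.0, 61.8 and 55.8 CPM against 96.7, 126 and 222 CPM, with a log2 fold change of 1.47 (SE 0.34, BH-adjusted p = 0.0272 from limma-voom). Both missed the threshold without *Nf1fl/fl;DhhCre* replicate 1 or 3 or double-knockout replicate 2 (BH-adjusted p from 0.0517 to 0.0868 in limma-voom). In both genes double-knockout replicate 3 exceeded the other 2 double-knockout libraries by more than they differed from each other. *Syt14* and *Syt16* did not overlap between the genotypes either but had few counts. *Syt16* was at 0.416, 1.13 and 0.0641 CPM against 2.39, 2.22 and 3.90 CPM, and its log2 fold change of 2.92 missed the threshold (BH-adjusted p = 0.0522 from limma-voom). It passed with DESeq2 (BH-adjusted p = 0.0208), and in limma-voom with quality weights (0.0265), with no filter (0.0495) and without *Nf1fl/fl;DhhCre* replicate 2 (0.0411). For *Syt14* the log2 fold change was 2.46 (BH-adjusted p = 0.0583 from limma-voom). It passed with edgeR's quasi-likelihood test (BH-adjusted p = 0.0345), DESeq2 (0.00347) and quality weights in limma-voom (0.0305). *Syt12* was at 64.8 to 67.4 CPM against 50.2 to 56.9 CPM without passing the test (log2 fold change -0.33). *Syt15* and *Syt17* overlapped between the genotypes. *Syt8* had at most 4 counts in a library and *Syt13* at most 27, and neither was tested in the main fit. In leave-one-out fits that kept *Syt13*, its log2 fold change lay between 2.425 and 4.155. It was called, past 2-fold, in 1 of the 6 leave-one-out fits.

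**Figure D2:**
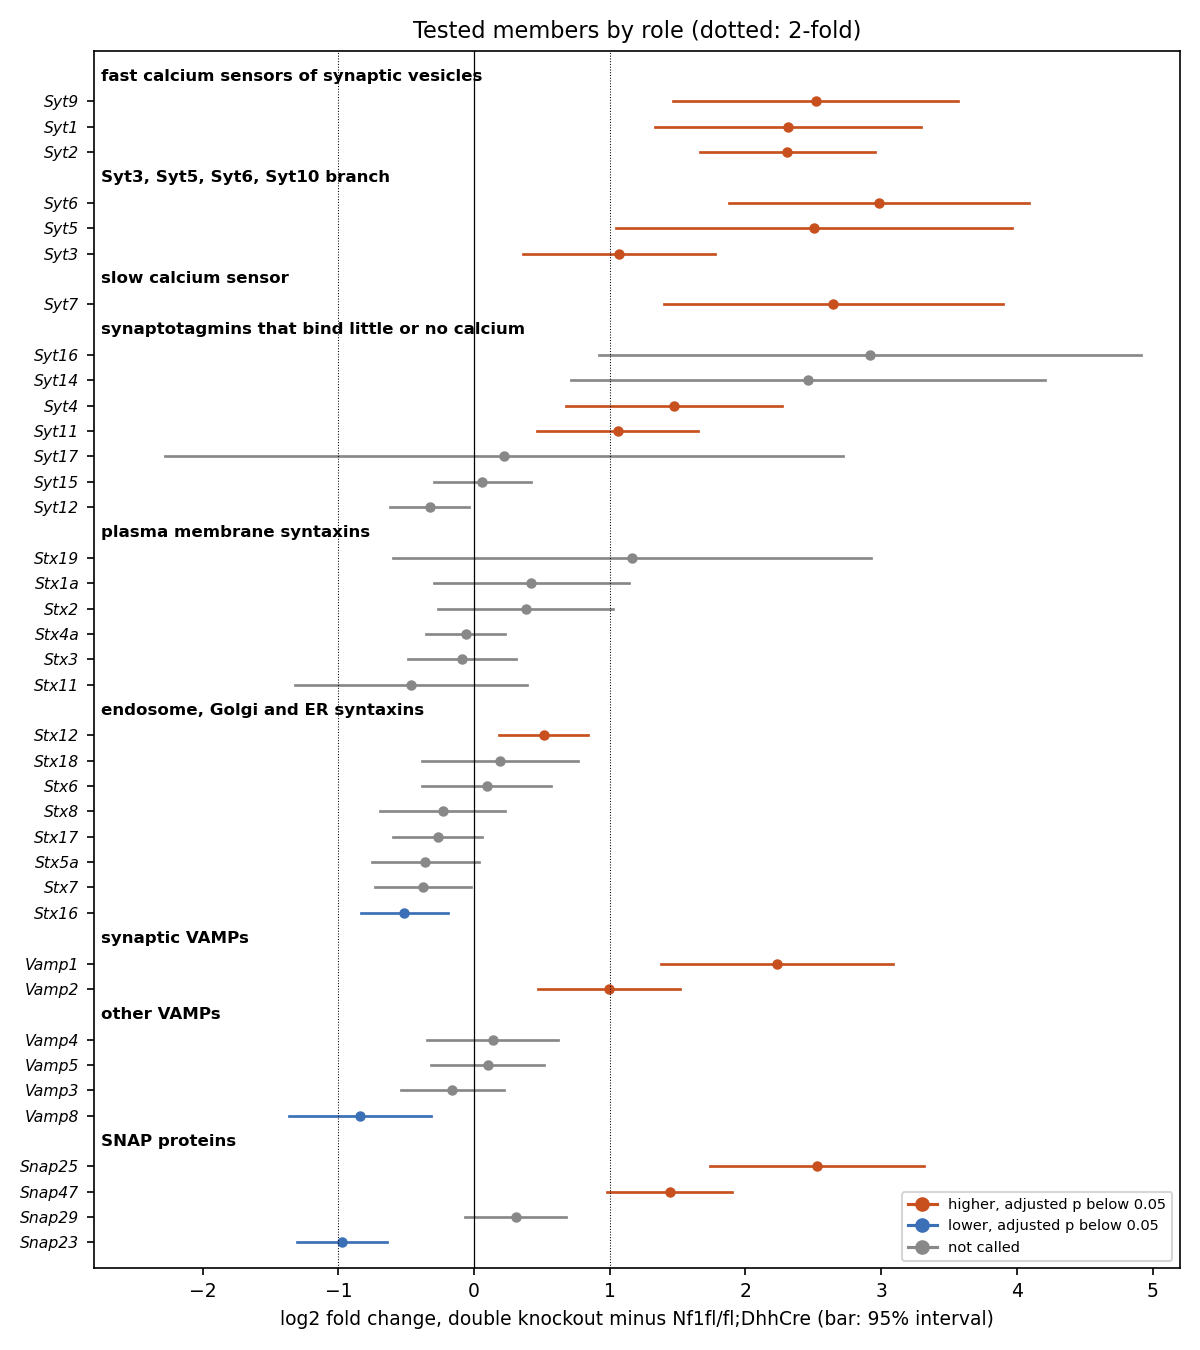
Log2 fold change of tested members (double knockout minus *Nf1fl/fl;DhhCre*, limma-voom), with 95% intervals of the moderated fit. Members are grouped by the roles assigned here, and *Syt5* and *Syt9* were placed by symbol. 9 of the 14 tested synaptotagmins rose, against 11.1% of all genes, and *Snap23* had the largest fall at -0.97.

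The plasma membrane syntaxins take up the vesicle SNARE at the cell surface. *Stx1a*, a syntaxin of nerve terminals, was at 3.61, 3.63 and 5.65 CPM against 4.94, 5.10 and 6.87 CPM, and these overlapped (log2 fold change 0.42, BH-adjusted p = 0.368 from limma-voom). *Stx2*, *Stx3* and *Stx4a*, which serve secretion outside the synapse, had log2 fold changes of 0.38, -0.09 and -0.06, all with overlap. *Stx11*, the syntaxin of granule release in lymphocytes, and *Stx19* did not pass either (-0.47 and 1.16).

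Of the 8 syntaxins of endosomes, Golgi and ER, 1 rose and 1 fell, against 11.1% and 8.22% of all genes. *Stx12*, a syntaxin of recycling endosomes, was at 177, 147 and 160 CPM against 200, 234 and 258 CPM. Its log2 fold change was 0.51 (SE 0.14, BH-adjusted p = 0.0425 from limma-voom). It missed the threshold with scaling by library size only (BH-adjusted p = 0.0654) and with quality weights (BH-adjusted p = 0.0542), both in limma-voom. Of the leave-one-out fits it was called without double-knockout replicate 1 (BH-adjusted p = 0.0234) and in none of the other 5 (0.0654 to 0.109). *Stx16*, which returns cargo from endosomes to the trans-Golgi network, was at 134, 132 and 163 CPM against 105, 91.6 and 102 CPM. The log2 fold change of *Stx16* was -0.51 (SE 0.14, BH-adjusted p = 0.0391 from limma-voom), and it was called in none of the leave-one-out fits. *Stx7*, of late endosomes, and *Stx5a*, of ER to Golgi transport, were lower in every double-knockout library without passing the test (-0.38 and -0.36). *Stx6*, *Stx8*, *Stx17* and *Stx18* had log2 fold changes between -0.27 and 0.19.

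Both synaptic VAMPs, the synaptobrevins, rose. *Vamp1*, the synaptobrevin of many sensory and motor neurons, was at 23.6, 40.2 and 24.8 CPM against 88.1, 132 and 210 CPM. Its log2 fold change was 2.23 (SE 0.37, BH-adjusted p = 0.0126 from limma-voom), and it missed the threshold without *Nf1fl/fl;DhhCre* replicate 1 (0.0548). *Vamp2*, the main synaptobrevin of the brain, changed less, from 117, 160 and 104 CPM to 196, 252 and 314 CPM. The change was just below 2-fold, with a log2 fold change of 0.99 (SE 0.22, BH-adjusted p = 0.0252 from limma-voom). *Vamp2* missed the threshold without *Nf1fl/fl;DhhCre* replicate 1 or 3 or double-knockout replicate 2 or 3 (BH-adjusted p from 0.0556 to 0.0837 in limma-voom). *Vamp8*, of late endosomes and secretory granules of blood cells, fell from 17.1, 13.4 and 17.9 CPM to 7.41, 10.03 and 9.37 CPM. The log2 fold change of *Vamp8* was -0.84 (SE 0.22, BH-adjusted p = 0.0394 from limma-voom), and of the leave-one-out fits it was called only without *Nf1fl/fl;DhhCre* replicate 2. *Vamp3*, the cellubrevin of recycling endosomes, *Vamp4*, of the trans-Golgi network, and *Vamp5* overlapped (-0.16, 0.14 and 0.10). *Vamp7* was listed at 0 in all 6 libraries; no gene of that name was in the annotation used for positions, and its 0 is not read as a level. The ratio of *Vamp2* to *Vamp8* in CPM was 6.88, 11.9 and 5.84 against 26.5, 25.1 and 33.5, and that of *Vamp2* to *Vamp3* 0.915, 1.502 and 0.768 against 1.59, 2.14 and 3.41.

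Marker genes of several cell types moved with the genotype. Of 21 sensory neuron markers, 20 rose in limma-voom with BH adjustment, with a median log2 fold change of 2.40. Their summed level was 993 to 2187 CPM in the *Nf1fl/fl;DhhCre* libraries and 5087 to 11510 CPM in the double-knockout libraries, with *Nf1fl/fl;DhhCre* replicate 2 and double-knockout replicate 3 highest in their groups, as for *Snap25*, *Syt6* and *Syt7*. None was at 0. Among 9 myelinating SC markers 7 rose, and among 10 general SC markers 3 did. Macrophage markers fell in 11 of 13 cases (median -2.43), and their summed level went from 1106 to 2311 CPM to 174 to 435 CPM. Of 7 fibroblast markers 6 fell, and over all genes tested 11.1% rose and 8.22% fell. The macrophage and fibroblast lists thus moved in the direction of *Snap23*, *Vamp8* and *Stx16*. In bulk libraries, more or fewer cells of a type and more or less RNA per cell cannot be told apart, and the part that the mix of cells had in these results was not tested.

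To set the members beside the neuronal markers, the mean log2 CPM of the 21 markers was subtracted from the log2 CPM of each member in each library. The marker mean was 4.03, 5.09 and 3.97 in the *Nf1fl/fl;DhhCre* libraries and 6.18, 6.47 and 7.29 in the double-knockout libraries, a difference of 2.28. On this scale, 8 of the 15 members that rose overlapped between the genotypes, among them *Snap25* (difference in means 0.24), *Syt1* (0.04), *Syt2* (0.03) and *Vamp1* (-0.05). *Syt6* was at -0.99, -1.19 and -2.11 against -0.62, -0.65 and -0.90, and was the higher in every double-knockout library, by 0.70 in the mean. *Syt9* was the other member above in every double-knockout library, by 0.24. *Syt3*, *Syt4*, *Syt11*, *Stx12* and *Vamp2* lay below in every double-knockout library, with differences of -1.23, -0.82, -1.23, -1.77 and -1.29. Over all 39 tested members, 2 lay above, 25 below and 12 overlapped. These are descriptions of 6 libraries without a test.

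**Figure D3:**
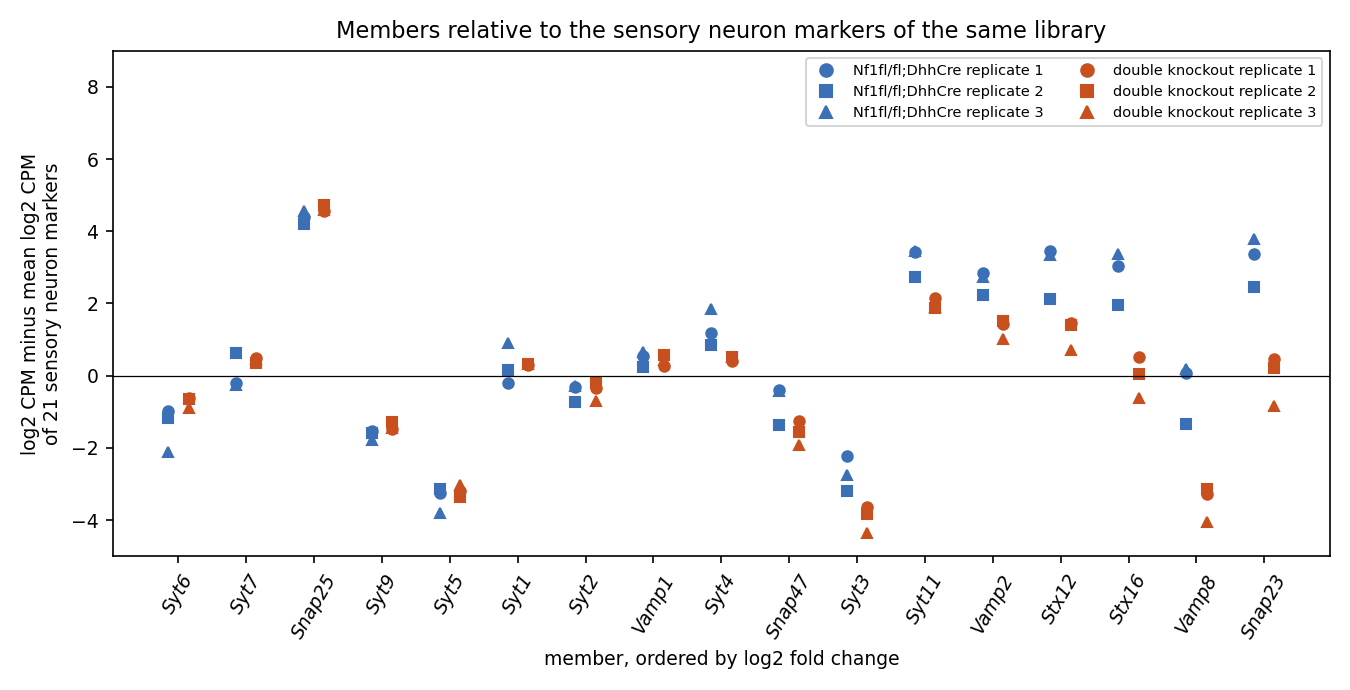
Log2 CPM of called members minus the mean log2 CPM of 21 sensory neuron markers, 1 point per library, coloured by genotype. *Syt6* and *Syt9* are higher in all double-knockout libraries on this scale, and among the members that rose *Stx12* shows the largest difference below, at -1.77.

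Partner proteins of the same machinery were taken from 4 lists. Of 82 genes matched, 77 were tested and 34 rose, 30 of them by more than 2-fold, while 1 fell, with a median log2 fold change of 0.67. Over all genes tested, 11.1% rose, 8.03% rose by more than 2-fold and 8.22% fell. Leaving out *Nf1fl/fl;DhhCre* replicate 1 reduced the 30 to 3, and leaving out its replicate 3 to 19. Over all genes, rises of more than 2-fold went from 1257 to 181 and 535 in the same fits. The vesicle membrane and active zone list held 21 of these rises among 26 genes tested (median 2.20). *Synpr*, the synaptic vesicle protein synaptoporin, was at 5.202, 20.6 and 5.58 CPM against 55.7, 66.1 and 121 CPM (log2 fold change 3.15, BH-adjusted p = 0.0138 from limma-voom). *Slc17a6*, the vesicular glutamate transporter of sensory neurons, rose by 2.65 on the log2 scale, *Sv2b* by 2.56, and *Pclo*, the active zone scaffold piccolo, by 2.49. *Rab3c*, a vesicle GTPase of high level in this list, rose by 1.92.

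Among the proteins that assemble and recycle SNARE complexes, 10 of 25 tested rose (median 0.66), against 11.1% of all genes. *Cplx1*, the complexin that clamps SNARE complexes before release, was at 29.9, 48.9 and 19.4 CPM against 135, 179 and 286 CPM, with a log2 fold change of 2.64 (BH-adjusted p = 0.0106 from limma-voom). Its paralog *Cplx2* was at 154, 147 and 191 CPM against 221, 212 and 360 CPM and did not pass (0.66, BH-adjusted p = 0.0822 from limma-voom). *Sncg*, *Unc13a*, which primes vesicles, and *Napb*, the neuronal cofactor of NSF, rose by 2.23, 1.99 and 1.92 on the log2 scale.

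Of the other SNARE genes, 1 of 14 rose (median log2 fold change 0.12), against 11.1% of all genes. This was *Stxbp5l*, tomosyn-2, at 11.2, 19.5 and 9.37 CPM against 55.6, 62.8 and 119 CPM (log2 fold change 2.55, BH-adjusted p = 0.0115 from limma-voom). Its paralog *Stxbp5* had a log2 fold change of 0.37 and *Gosr2*, a Golgi SNARE, of -0.27, neither of which passed. Of 12 relatives with C2 domains, *Rph3a* and *Sytl2* rose, by 2.49 and 1.07, and *Sytl5* fell by 2.33 on the log2 scale. *Esyt2*, a tether between ER and plasma membrane, had a log2 fold change of -0.08.

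**Figure D4:**
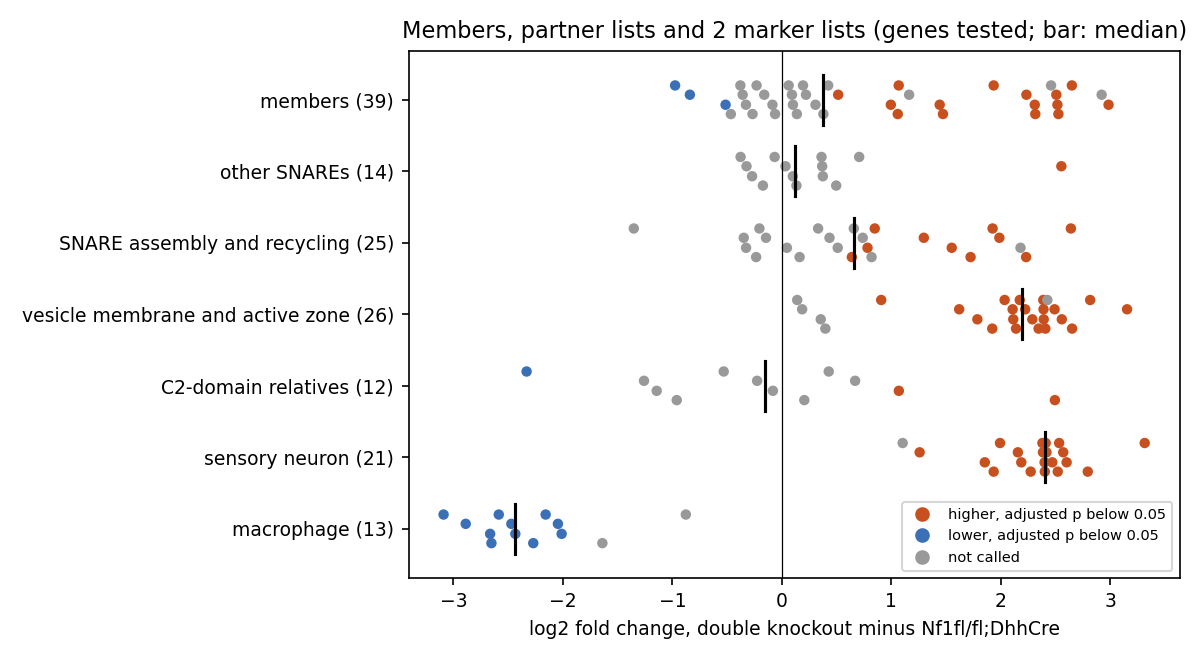
Log2 fold change (double knockout minus *Nf1fl/fl;DhhCre*, limma-voom) of each tested gene of the members, of 4 partner lists and of 2 marker lists, with the number tested; the bar is the median and colours give the call. The vesicle membrane and active zone list has a median of 2.20, the sensory neuron markers one of 2.40 and the other SNAREs one of 0.12.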

How the data were processed

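The authors amplified total RNA (NuGEN Ovation RNA-Seq System v2), prepared Nextera XT libraries, aligned reads to mm10 with TopHat and counted them per gene with featureCounts; the annotation, the strand setting and how multimapping reads were handled are not given in the sources used here. The deposited values are raw counts of reads per gene, named by symbol. Amplified reads carry no molecular identifiers. Here, genes kept by filterByExpr (minimum count 10, minimum total 15) were scaled by TMM (factors 0.950 to 1.04) and fitted with limma-voom on genotype alone (R 4.3.3, edgeR 4.0.16, limma 3.58.1). The study's methods name TMM and limma-voom; the filter and the model term were chosen here. Benjamini-Hochberg (BH) adjustment covered all 15652 genes tested. CPM are TMM-scaled. Counts of 3, the floor taken for a gene, equal 0.179 to 0.247 CPM.

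Libraries were grouped by the genotype label, and replicate numbers follow the order of the labels. P-values from limma-voom judge the difference between the genotypes against the spread between libraries of the same genotype, moderated over all genes. Counts of libraries of 1 genotype differed beyond sampling noise (chi-square per degree of freedom 21.7 to 133), and the libraries were counted separately. Alternatives tried were DESeq2 1.42.0 and edgeR's quasi-likelihood test, scaling by library size only or by DESeq2 size factors, no filter or CPM above 1 in 3 or more libraries, quality weights, p-values without adjustment, and omission of single libraries. The procedure was tested on simulated data.

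Members, roles, lists and tests were chosen with earlier results of these data known. Called members are given by library, and of each partner list the genes called past 2-fold with the 4 largest changes at a mean log2 CPM of 3 or more, and the 2 genes of highest level; *Sytl5*, below that level, was added after its values were seen. Some genes that are in the counts given are not reported here. Positions are from GENCODE M21 (GRCm38). Figures were drawn with matplotlib 3.10.9.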

Additional observations from a re-analysis of the deposited data

How the results depend on the processing

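Of the 15 members that rose, 13 were called under all 7 alternatives of test, scaling and filter; *Syt3* and *Stx12* were not. The number that rose was 17 with DESeq2 and with unadjusted p-values, 16 with quality weights and 13 with library size only, and ranged from 3 to 15 over the fits that left out 1 library, and that past 2-fold from 3 to 14. The number that fell ranged from 1 to 2, and that past 2-fold from 0 to 1. It was 5 at an unadjusted p below 0.05, and with library size only 1 member, *Snap23*, fell past 2-fold. Among the partner genes, the count past 2-fold ranged from 3 to 32 for rises and from 0 to 1 for falls when 1 library was left out; falls numbered 2 with DESeq2 and 3 at unadjusted p-values. With library size only *Syt15* turned to -0.016. Leaving out 1 library changed the sign of uncalled members: *Syt17* from -0.39 to 1.31, *Stx3* from -0.20 to 0.047, *Stx4a* from -0.088 to 0.021 and *Stx6* from -0.004 to 0.23. The cause was not tested. No paired analysis was made because the labels link no mouse of 1 genotype to a mouse of the other. *Syt14* and *Syt16*, not called in the reported test, were each called under 3 of the 7 alternatives.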
